A study of Saccharomyces cerevisiae with 6 samples.

Results

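The ATG genes of budding yeast, the genes whose current symbol is ATG followed by a number, were compared between a wild type strain and a strain lacking VPS1. The yeast gene table holds 37 such symbols. Of these, 34 had a probe set on the array, 1 each, among 5449 genes measured, and ATG42, ATG44 and ATG45 were not analysed here. All 34 are described, in the order of the steps at which their products act. The wild type was BY4741, a laboratory strain, and the vps1Δ mutant is labelled as strain Y05072. VPS1 encodes a dynamin-like GTPase that acts in vacuolar protein sorting, endocytosis and peroxisome division. Both strains grew at 30 degrees in supplemented minimal medium, without a starvation step in the labels, and total RNA of 3 biologically independent replicates per strain was hybridised to 1 Affymetrix array each. The deletion is represented by 1 strain, so effects of VPS1 loss and of any other difference between these strains cannot be told apart.

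Autophagy delivers cytoplasm to the vacuole inside a double membrane. The Atg1 kinase complex starts the process, Atg9 vesicles and a phosphatidylinositol kinase complex build the first membrane, and a pair of ubiquitin-like systems attaches Atg8 to a lipid of the growing membrane. Receptors tie chosen cargo to Atg8, and the vacuole breaks down the inner membrane and its contents. In growing yeast the same machinery runs the Cvt pathway (cytoplasm-to-vacuole targeting), which brings aminopeptidase I and alpha-mannosidase into the vacuole. Transcript levels, the quantity measured here, do not report how much autophagy takes place.

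Values are log2 levels of 1 probe set per gene. In the deposited form the deletion strain's arrays were shifted upward, by a median of 0.51 over the 5449 genes. All levels and differences below are therefore on the quantile scale, on which every array has the same distribution and the median difference of all genes was -0.04. Within a strain, pairs of arrays correlated at 0.985 to 0.994 (wild type) and 0.991 to 0.995 (deletion). VPS1 itself was at 10.32, 9.98 and 9.95 in wild type and at 2.54, 2.40 and 2.23 in the deletion strain, below the background level of 3.53 to 3.59 on each of those arrays and at least 91.5-fold lower (limma adjusted p = 1.65e-07). All 34 ATG genes lay above background on all 6 arrays, from 3.92 to 11.58. The array also carries 17 probe sets with atg names in lower case that are absent from the yeast gene table, and none of these exceeded 3.38 on any array. Of 5 MATa marker genes 3 fell (MFA2, BAR1 and STE2), and of 4 MATalpha marker genes 1 rose (STE3). Among all genes 6.28% fell and 6.77% rose. All 9 markers were above background in both strains. With the replicate number as a block in the fit, all 5 MATa markers were lower and 2 MATalpha markers higher, where 16.4% and 14.4% of all genes were. Added were STE6 (adjusted p = 0.0894, and 0.0124 with the block), MFA1 (0.119 and 0.0253) and SAG1 (0.0843 and 0.0105). The remaining MATalpha markers went the other way, MF(ALPHA)1 by -0.38 ± 0.18 and MF(ALPHA)2 by -0.13 ± 0.15. Neither passed, with or without the block. STE2 lost its call without wild type replicate 2 or deletion replicate 1 or 3 (0.0664 to 0.0724), and STE3 without wild type replicate 2 or 3 or deletion replicate 1 or 3 (0.0929 to 0.158). In the deposited form STE2 was 0.0492 above wild type, and BAR1 was lower by a difference of -0.03 that did not pass (adjusted p = 0.776).

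In the vps1 deletion strain 5 of the 34 ATG genes rose, and none fell. The 5 were ATG5 and ATG8 of the conjugation systems, ATG22 of vacuolar breakdown, the sorting nexin ATG20 and ATG23 of the Atg9 vesicles, with differences between 0.44 and 1.15 on the log2 scale. A gene rose or fell if limma's moderated test, with Benjamini-Hochberg adjustment over all 5449 genes, gave an adjusted p under 0.05. Among all genes 6.77% rose and 6.28% fell, 13% together. At an unadjusted limma p under 0.05, 12 ATG genes were higher and 1, ATG16, was lower, against 13.4% and 15.5% of all genes. On the values as deposited, 32 ATG genes passed as higher and none as lower, where 76% and 0.954% of all genes did, so that count reads the shift of the arrays along with any change of the genes. With the replicate number as a block, 15 ATG genes passed as higher and 1 as lower, where 14.4% and 16.4% of all genes did. The block rests on the replicate numbers and on correlations in these same data, described below, which were weakest for number 3. All 3 deletion arrays lay above all 3 wild type arrays for 10 ATG genes and below them for 1, against 15% and 19% of all genes. The median difference of the ATG genes was 0.20, with 25 of 34 above 0; among all genes 43.2% were above 0. For 25 of the 29 genes that did not pass, the 95% interval of the difference lay within 2-fold either way, as it did for 27 of all 34 and for 91.2% of all genes.

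**Figure D1:**
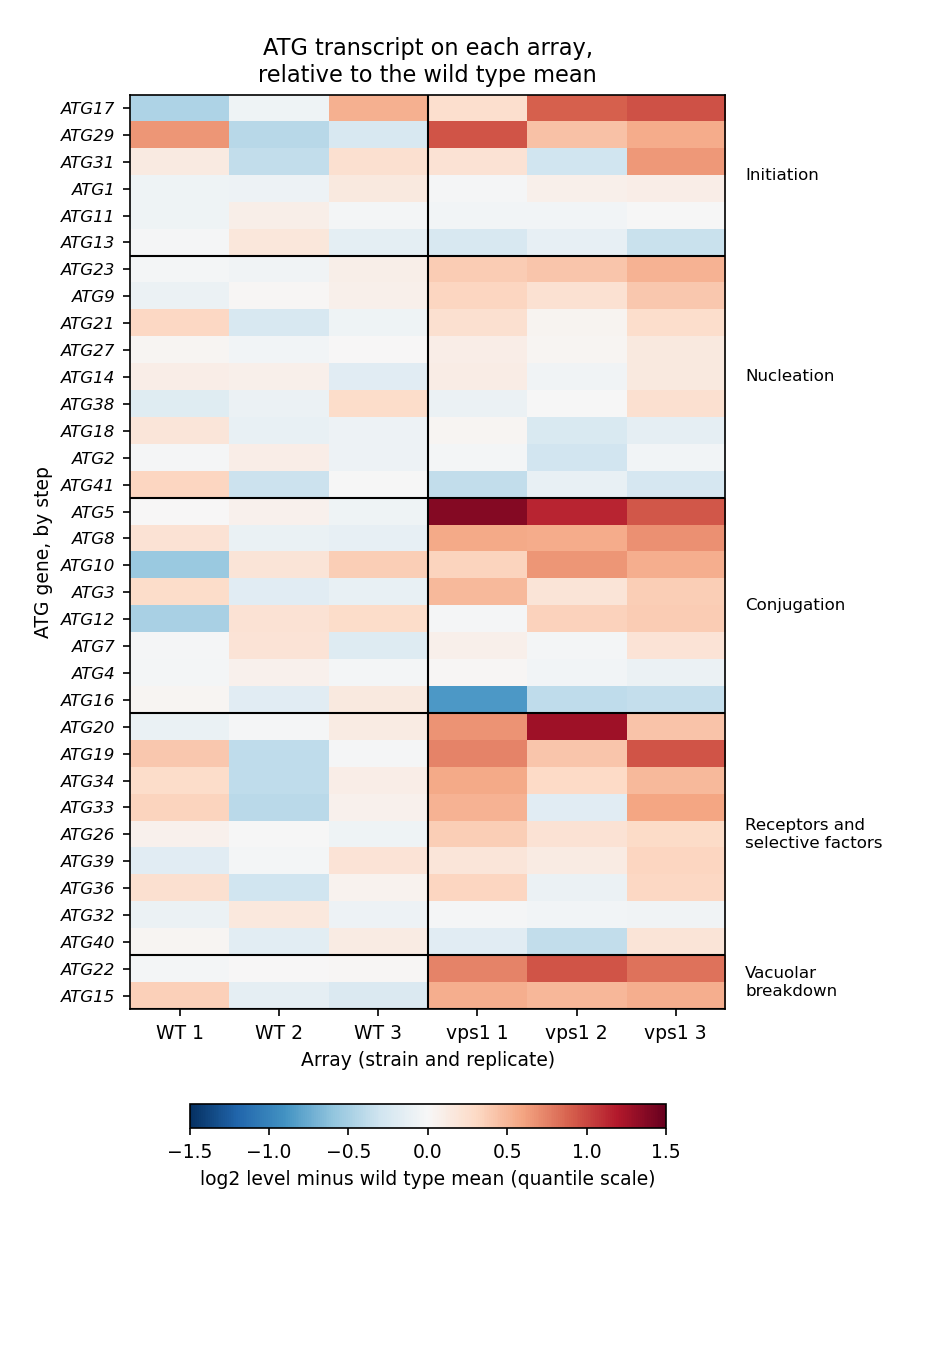
Level of each of the 34 ATG genes (rows, grouped by step) on each of the 6 arrays (columns), as the log2 difference from that gene's wild type mean, blue for lower and red for higher. ATG5 stands furthest above its wild type mean on deletion array 1 and ATG20 on deletion array 2, and ATG16 is the sole row that is blue on all 3 of them and lower than on every wild type array.

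**Figure D2:**
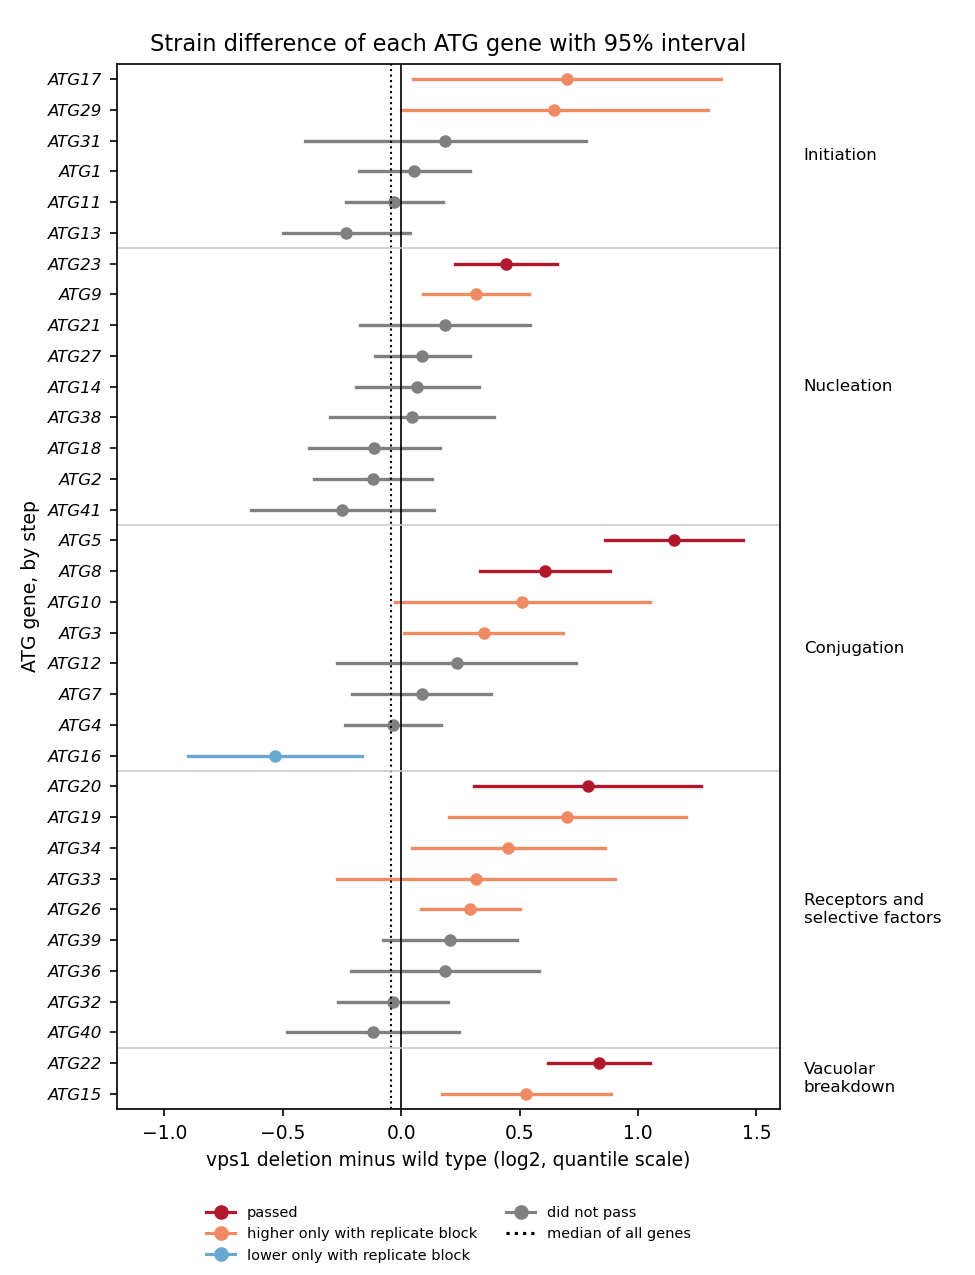
Difference of each ATG gene, vps1 deletion minus wild type (log2), with its 95% limma interval, by step; dark red marks the 5 genes that passed, light red and light blue those that passed only with the replicate number as a block. The dotted line is the median of all genes, -0.04.

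The Atg1 kinase complex and its scaffolds showed no gene that passed, where 13% of all genes did. ATG1, the kinase, was at 6.74, 6.73 and 6.95 in wild type and 6.79, 6.89 and 6.91 with VPS1 deleted, which differ by 0.05 ± 0.10 (log2, SE, n = 3 per strain; adjusted p = 0.775). The deletion arrays all lie within the wild type range, and the 95% interval of the difference was -0.18 to 0.29. ATG13, its regulatory subunit, differed by -0.23 ± 0.11 (adjusted p = 0.229), and ATG11, the scaffold of selective autophagy and the Cvt pathway, by -0.03 ± 0.09.

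Larger differences with a wide spread were seen in the complex that scaffolds starvation-induced autophagy, made of Atg17, Atg29 and Atg31. ATG17 was at 6.96, 7.35 and 7.95 in wild type and at 7.67, 8.33 and 8.38 with VPS1 deleted, higher by 0.70 ± 0.28 (adjusted p = 0.145, and 0.00467 with the block). The third wild type array lies above the first deletion array, so the strains overlap, although the deletion array was the higher one at each of the 3 replicate numbers. ATG29 was at 5.74, 4.66 and 4.85 against 6.03, 5.52 and 5.65, a difference of 0.65 ± 0.28 (adjusted p = 0.174, and 0.00889 with the block). Here the first wild type array is the high one, and without it ATG29 passed (adjusted p = 0.00824). ATG31 differed by 0.19 ± 0.26 (adjusted p = 0.682, and 0.174 with the block), with an interval of -0.41 to 0.78.

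Of the 9 measured genes for Atg9 vesicles, lipid transfer and phosphoinositides, 1 rose, where 6.77% of all genes did. ATG23, a peripheral membrane protein needed for the movement of Atg9, was at 7.67, 7.65 and 7.79 in wild type and at 8.08, 8.12 and 8.23 in the deletion strain. The strains are clearly apart, with an SD of 0.07 in each, and the gene rose by 0.44 ± 0.09, or 1.36-fold (adjusted p = 0.0212). ATG9, the transmembrane protein of these vesicles, was at 7.37, 7.47 and 7.53 against 7.77, 7.68 and 7.86. Its groups do not overlap either, but the difference of 0.32 ± 0.10 passed only with the block (adjusted p = 0.0715, and 0.0236 with the block).

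The other 7 genes of this step did not pass in either fit. ATG27, another Atg9 trafficking protein, differed by 0.09 ± 0.09 and ATG41, which also acts with Atg9, by -0.25 ± 0.17. ATG2, the lipid transfer protein, differed by -0.12 ± 0.11, and its partner ATG18, which binds phosphatidylinositol phosphates, by -0.11 ± 0.12. ATG21, a relative of Atg18 that recruits the conjugation machinery, differed by 0.19 ± 0.15. ATG14 and ATG38, subunits of the phosphatidylinositol kinase complex of autophagy, differed by 0.07 ± 0.11 and 0.05 ± 0.15. The intervals of all 9 genes lay within 2-fold, as did those of 91.2% of all genes.

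The conjugation systems held the largest rise among the ATG genes, ATG5, and also the lowest difference, ATG16, although their products form 1 complex. Atg12 is attached to Atg5, and this conjugate binds Atg16 to form the enzyme that places Atg8 on membranes. ATG5 was at 10.06, 10.12 and 9.998 in wild type and at 11.43, 11.21 and 10.996 in the deletion strain. The lowest deletion array stands well above the highest wild type array, and ATG5 rose by 1.15 ± 0.13, or 2.22-fold (95% interval 0.86 to 1.44 on the log2 scale, adjusted p = 0.00138), rank 83 of the 5449 differences. ATG12 was at 8.76, 9.46 and 9.52 against 9.23, 9.59 and 9.62, a difference of 0.24 ± 0.22 that did not pass (adjusted p = 0.53, and 0.11 with the block); the first replicate was the low one in both strains. ATG16 was at 4.81, 4.61 and 4.92 in wild type and at 3.92, 4.40 and 4.42 in the deletion strain. The value of 3.92 is the lowest of any ATG gene on any array, near the background level of 3.59 on that array. Without that array the ATG16 difference was -0.37. All 3 deletion arrays lie below the wild type arrays, by -0.53 ± 0.16 on average (adjusted p = 0.0688, and 0.0208 with the block), and on the values as deposited, before the arrays were brought to 1 distribution, ATG16 was 0.08 above wild type.

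The change in the log2 difference between a pair of genes on the same array does not depend on a shift of the whole array. From wild type to deletion strain, ATG5 minus ATG16 changed by 1.68 on the quantile scale and by 1.61 on the values as deposited, and ATG5 minus ATG12 by 0.92 and 0.91. ATG17 minus ATG31 changed by 0.51 and 0.53, and ATG19 minus its cargo gene APE1 by -0.18 and -0.16. These 4 pairs were chosen after their values were seen and are given as a description, without a test.

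ATG8, the ubiquitin-like protein itself, was at 8.99, 8.67 and 8.64 in wild type and at 9.34, 9.33 and 9.46 in the deletion strain. It rose by 0.61 ± 0.12, or 1.52-fold (adjusted p = 0.0165), with every deletion array above every wild type array. ATG3, the conjugating enzyme for Atg8, differed by 0.35 ± 0.14 (adjusted p = 0.159, and 0.0207 with the block), and ATG10, the conjugating enzyme for Atg12, by 0.51 ± 0.23 (adjusted p = 0.194, and 0.0266 with the block). ATG7, the activating enzyme shared by both systems, differed by 0.09 ± 0.13, and ATG4, the protease that prepares and recycles Atg8, by -0.03 ± 0.09, the latter with an interval of -0.24 to 0.17. In the conjugation step as a whole 2 of 8 genes rose, and with the block 4 were higher and 1 lower. Of all genes 6.77% rose, and with the block 14.4% were higher and 16.4% lower.

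**Figure D3:**
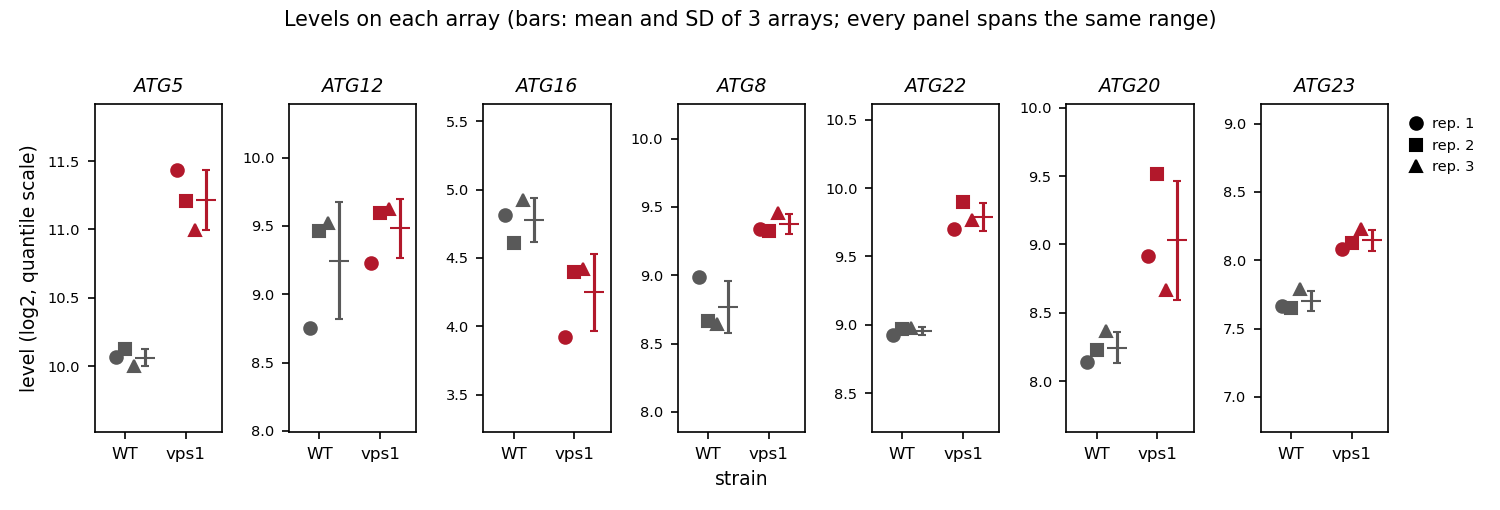
Levels (log2, quantile scale) of the Atg12-Atg5-Atg16 subunits and of the other 4 ATG genes that passed, on each array of wild type (grey) and vps1 deletion (red), with the mean and SD of 3 arrays; symbols mark the replicate number and every panel spans the same number of log2 units. The strains do not overlap for ATG5, ATG8, ATG22, ATG20 and ATG23 (higher) and ATG16 (lower), and they overlap for ATG12.

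Receptors and selective factors were mixed, with 1 of 9 genes passing and 4 more passing with the block, all of them higher. Of all genes 6.77% rose, and 14.4% were higher with the block. ATG20, a sorting nexin that works with Snx4 in the Cvt pathway, was at 8.14, 8.23 and 8.36 in wild type and at 8.91, 9.51 and 8.67 in the deletion strain. The second deletion array is the highest, the spread in the deletion strain (SD 0.44) is larger than in wild type (SD 0.11), and ATG20 rose by 0.79 ± 0.21, or 1.73-fold, close to the threshold (adjusted p = 0.0459). ATG19, the receptor that carries aminopeptidase I and alpha-mannosidase in the Cvt pathway, was at 9.17, 8.38 and 8.75 against 9.51, 9.18 and 9.72. Its neighbour and paralog ATG34, a receptor of alpha-mannosidase in starved cells, was at 7.67, 7.02 and 7.50 against 7.97, 7.69 and 7.88. In both genes the second array was the lowest of each strain. Every deletion array exceeded every wild type array, by 0.70 ± 0.21 for ATG19 and 0.45 ± 0.17 for ATG34 between the means. Neither passed (adjusted p = 0.0751 and 0.137), while both did with the block (adjusted p = 0.00694 and 0.0135).

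Receptors of organelles did not pass. ATG32, the mitophagy receptor, differed by -0.03 ± 0.10, with an interval of -0.27 to 0.20. ATG33, a mitochondrial protein of mitophagy, differed by 0.32 ± 0.25 (adjusted p = 0.46) and passed with the block (adjusted p = 0.0419). ATG36, the peroxisome receptor, differed by 0.18 ± 0.17 (adjusted p = 0.534). ATG39 and ATG40, the receptors for the nuclear envelope and the endoplasmic reticulum, differed by 0.21 ± 0.12 and -0.12 ± 0.16. ATG26, a sterol glucosyltransferase whose role in peroxisome degradation is known from Pichia pastoris, was at 9.001, 8.94 and 8.88 against 9.31, 9.16 and 9.23, a difference of 0.29 ± 0.09 that was small but without overlap (adjusted p = 0.077, and 0.0267 with the block).

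Of the 2 measured genes of vacuolar breakdown 1 rose, where 6.77% of all genes did. Both were higher on every deletion array than on every wild type array, as were 15% of all genes. ATG22, a vacuolar membrane protein that exports amino acids, was at 8.92, 8.97 and 8.98 in wild type and at 9.70, 9.90 and 9.77 in the deletion strain. The wild type arrays lie within an SD of 0.03, and ATG22 rose by 0.83 ± 0.09, or 1.78-fold (95% interval 0.62 to 1.05, adjusted p = 0.00151). ATG15, the lipase that opens autophagic bodies in the vacuole, was at 5.99, 5.49 and 5.42 against 6.18, 6.13 and 6.18. The deletion arrays are nearly identical, the first wild type array comes close to them, and the difference of 0.53 ± 0.15 did not pass (adjusted p = 0.0634). Under 5 of the 14 alternatives listed below ATG15 passed. Among them were the block (0.0161) and the fit that left out the first wild type array (0.00359).

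**Figure D4:**
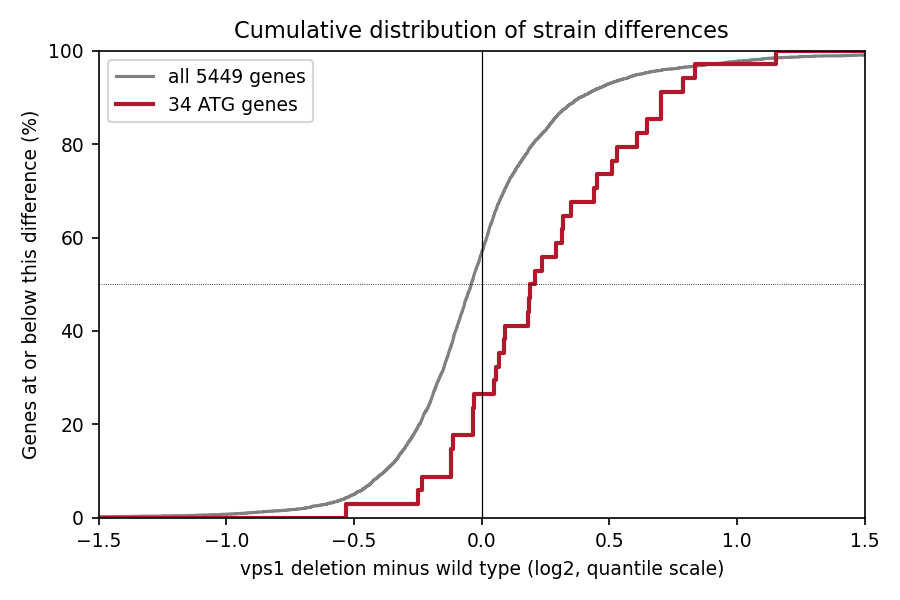
Share of genes (vertical axis, percent) at or below each strain difference (horizontal axis, log2, quantile scale) for the 34 ATG genes and for all 5449 genes measured. The ATG curve crosses the middle at 0.20 and the curve of all genes at -0.04; ATG5 is the last ATG gene at 1.15.

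The calls rest on the arrays to different degrees. ATG5 and ATG22 passed whichever of the 6 arrays was left out, with adjusted p of at most 0.00884 and 0.0103. ATG8 did not pass without wild type replicate 2 or 3 (adjusted p = 0.0679 and 0.0501) or deletion replicate 1 or 3 (0.0564 and 0.0751). ATG23 did not pass without wild type replicate 2 (0.0865) or any 1 deletion array (0.0637, 0.0561 and 0.0947 for replicates 1 to 3). ATG20 kept its call without deletion replicate 3 (0.0383) and lost it without any of the other 5 arrays (0.052 to 0.123). Leaving out wild type replicate 1 raised the count to 9, with ATG29, ATG3 (0.0328), ATG19 (0.0171), ATG34 (0.0493) and ATG15 added and ATG20 lost, while the other omissions gave 2 or 3. The number of all 5449 genes that rose also moved over these 6 fits, from 195 to 436, against 369 with all arrays. The median absolute deviation of all genes from their strain mean was 0.129 on wild type replicate 1 and 0.0766 to 0.0988 on the other 5. Over the ATG genes alone wild type replicate 1 did not stand out. There the value was 0.119 on it, 0.123 on wild type replicate 2 and 0.0762 to 0.114 on the remaining arrays.

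Part of the spread among the ATG genes followed the replicate number. Deviations from the strain mean correlated over the 34 genes at 0.69, 0.53 and 0.41 between the arrays numbered 1, 2 and 3, and over all 5449 genes at 0.67, 0.65 and 0.29. Between arrays of different number they correlated at -0.69 to 0.22 over the 34 genes and at -0.63 to 0.23 over all genes. The highest of these, between wild type replicate 3 and deletion replicate 2, came close to the 0.29 of the third pair. These are descriptions over genes, which are not independent. For each gene the deviations of the 3 arrays of a strain sum to 0. A positive correlation at the same number therefore makes those at different numbers lower on balance. Replicate 2 was the lowest array in both strains for 11 of 34 ATG genes, among them ATG19, ATG34, ATG33 and ATG36, and for 18.6% of all genes. It was also the lowest in both strains for 14 of 18 genes that yeast switches on as glucose runs out. None of these 18 growth phase genes passed between the strains, where 3 were higher and 1 lower at an unadjusted limma p under 0.05, and 5 were higher and 4 lower with the block. Among all genes 14.4% and 16.4% passed with the block. The median difference of the 18 was 0.23, with 13 above 0, where 43.2% of all genes were. The member with the smallest p was ADH2, the alcohol dehydrogenase of ethanol use, at -0.39 ± 0.11 (adjusted p = 0.0565, and 0.0119 with the block). HSP26, named after its values were seen, had the largest difference of the list, 1.29 ± 0.41 (adjusted p = 0.0834, and 0.00107 with the block). The part of growth phase in the ATG differences was not tested.

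**Figure D5:**
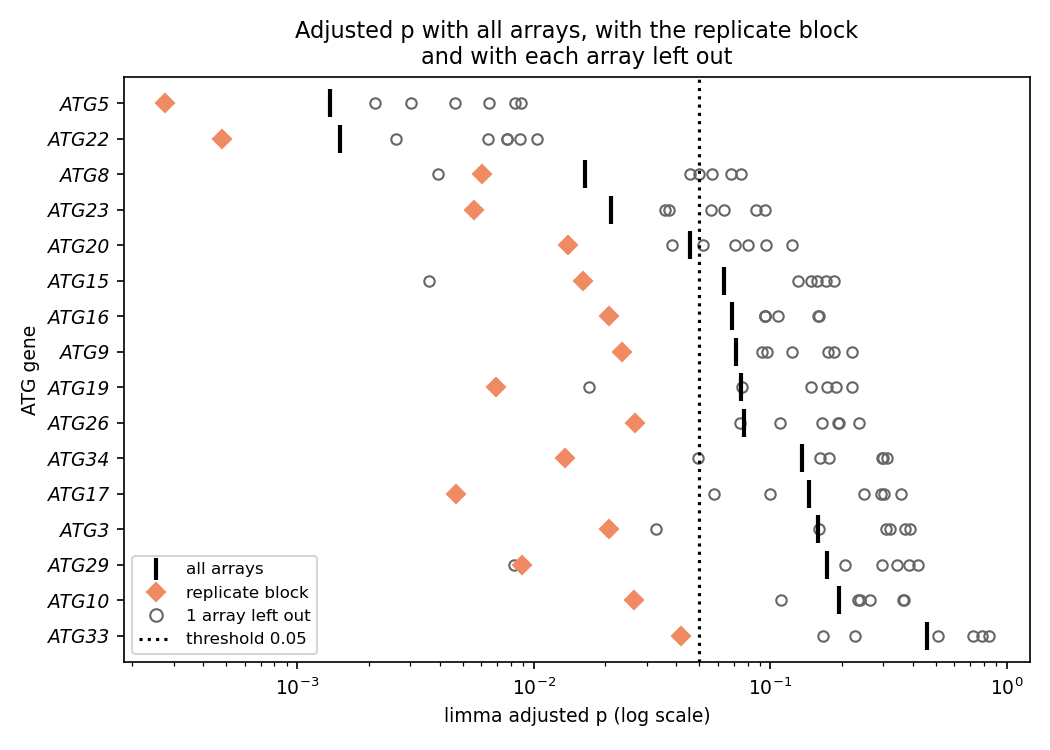
Adjusted p (log axis) of the 16 ATG genes that passed with all arrays or with the replicate block: bars for all arrays, diamonds for the block, open circles for the 6 fits that leave out 1 array each, dotted line at 0.05. All circles of ATG5 and ATG22 lie left of the line; those of ATG8, ATG23 and ATG20 lie on both sides.

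Genes that act with the ATG genes but carry other names were examined by list. Beside the counts below, 6.77% of all genes rose and 6.28% fell, and 14.4% and 16.4% did with the block. At an unadjusted limma p under 0.05, 13.4% of all genes were higher and 15.5% lower. Among 9 partners of Atg proteins none passed, where 1 was higher and 1 lower at an unadjusted limma p under 0.05 and also with the block. VPS34, the lipid kinase of the autophagy complex, differed by 0.00062 ± 0.09 (log2), and its partner VPS30 by 0.17 ± 0.09; both were added after their values were seen. TRS85, a subunit of the TRAPP complex of autophagy and the member with the smallest p, differed by -0.38 ± 0.10 (adjusted p = 0.0556, and 0.0135 with the block).

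Of 4 genes for Cvt cargo 2 rose and none fell, in the fit and with the block, where 6.77% and 14.4% of all genes rose. AMS1, alpha-mannosidase, was at 7.68, 7.44 and 7.77 in wild type and at 10.04, 9.86 and 10.12 in the deletion strain, a 5.2-fold rise (adjusted p = 4.23e-05). APE1, aminopeptidase I, was at 10.42, 9.64 and 10.18 against 11.002, 10.71 and 11.18, a rise of 0.88 ± 0.21 (adjusted p = 0.0346). Both cargoes, like their receptor gene ATG19, were lowest on the second array of each strain. LAP3 and APE4, aminopeptidases also carried by the Cvt pathway and named after their values were seen, differed by 0.08 ± 0.18 and -0.04 ± 0.16. Of 11 vacuolar proteases and amino acid exporters 2 rose and none fell, 4 with the block. These were PRB1, proteinase B, by 1.096 ± 0.16 (adjusted p = 0.00468), and PEP4, proteinase A, by 0.43 ± 0.11 (adjusted p = 0.0491). AVT3, AVT4, AVT6 and AVT7, amino acid transporters of the vacuole, differed by -0.02 to 0.20 and did not pass; they too were named after their values were seen. APE1 lost its call without wild type replicate 2 or 3 or deletion replicate 1 or 3 (adjusted p = 0.068 to 0.124), and PEP4 without any array but wild type replicate 1 (0.0931 to 0.168).

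Of 16 measured factors of fusion with the vacuole, VAM6, a subunit of the HOPS tether, rose by 0.36 ± 0.10 (adjusted p = 0.0494) and none fell. There were 4 lower at an unadjusted limma p under 0.05, where 15.5% of all genes were. With the block 3 were higher and 3 lower, where 14.4% and 16.4% of all genes were. Among the fits that leave out 1 array, VAM6 kept its call without wild type replicate 3 (adjusted p = 0.0472) and lost it in the other 5 (0.0867 to 0.16).

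Among regulators, 1 of 17 genes of TORC1 and nutrient signalling fell and none rose, with 1 higher at an unadjusted limma p under 0.05. Of all genes 6.28% fell, and 13.4% were higher at that unadjusted p. The gene that fell was SCH9, a kinase downstream of TORC1, by -0.52 ± 0.11 (adjusted p = 0.0205). On the values as deposited SCH9 was 0.02 above wild type, and the call was lost without any 1 deletion array (0.055 to 0.0906). TOR1 and KOG1, chosen after their values were seen, differed by 0.05 ± 0.11 and 0.17 ± 0.09.

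Of 17 transcriptional regulators of ATG genes 4 fell and 1 rose, where 6.28% and 6.77% of all genes did. With the block 5 fell and 2 rose, where 16.4% and 14.4% of all genes did. GIS1, a regulator of genes used after glucose, fell by 0.82 ± 0.11 (adjusted p = 0.00335), and MSN4, a stress activator, fell by 0.91 ± 0.12 (adjusted p = 0.00359). MSN2, of the same list and named after its values were seen, went the other way, by 0.30 ± 0.09 (adjusted p = 0.0788, and 0.0242 with the block). PHO23, a subunit of the Rpd3 deacetylase complex known to repress ATG9, fell by 0.52 ± 0.10 (adjusted p = 0.0172). RPH1, known to repress ATG7, ATG8, ATG9, ATG14 and ATG29, rose by 0.50 ± 0.11 (adjusted p = 0.0293). UME6, the DNA-binding repressor of ATG8 and named after its values were seen, was at 9.24, 9.31 and 8.75 against 8.53, 8.52 and 8.46 and fell by 0.60 ± 0.15 (adjusted p = 0.0439). On the values as deposited 11 of the 17 were higher and 1, MSN4, was lower, where 76% and 0.954% of all genes were. There PHO23 was 0.02 above wild type, and GIS1 and UME6 differed by -0.27 (adjusted p = 0.0628) and -0.04 (adjusted p = 0.824) and did not pass. GIS1 and MSN4 passed with every array left out in turn. PHO23 lost its call without wild type replicate 2 (0.0659) or deletion replicate 2 or 3 (0.0561 and 0.0772), RPH1 without wild type replicate 2 (0.0769) or deletion replicate 1 or 3 (0.0945 and 0.114), and UME6 without any array but wild type replicate 3 (0.0722 to 0.14). Of the targets named, ATG8 passed, ATG9 and ATG29 passed only with the block, and ATG7 and ATG14 passed in neither fit. No relation between regulator and target was tested.

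Nitrogen-regulated genes, which share GATA factors with some ATG genes, rose in 3 of 22 cases and none fell, where 2 were lower at an unadjusted limma p under 0.05. With the block 6 were higher and 1 lower. Of all genes 6.77% rose and 6.28% fell, and 14.4% and 16.4% did with the block. MEP1, an ammonium permease, rose by 0.96 ± 0.12 (adjusted p = 0.00257), DAL3, of allantoin use, by 0.54 ± 0.10 (adjusted p = 0.0126), and DUR3, a urea transporter, by 0.52 ± 0.10 (adjusted p = 0.0149). DAL3 lost its call without deletion replicate 3 (0.0615) and DUR3 without deletion replicate 2 or 3 (0.052 and 0.0722). GLN3 and GAT1, the activating GATA factors in the list of regulators, differed by 0.03 ± 0.13 and -0.39 ± 0.16 and did not pass; both were named after their values were seen.

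The genes next to the 5 ATG genes that rose were also read. Of 10 neighbours, YPL150W, next to ATG5, rose by 0.54 ± 0.14 (adjusted p = 0.041), and SRO9, an RNA-binding protein gene next to ATG22, fell by 0.46 ± 0.11 (adjusted p = 0.0372). The other 8 did not pass, with differences of -0.48 to 0.18. Among all genes 13% passed in either direction.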

How the data were processed

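Total RNA of 6 yeast cultures was measured on Affymetrix arrays from 100 ng by 3' in vitro transcription, per the labels' protocols. The deposited values are log2 expression values, 1 per probe set; GCOS, RMA and limma are listed in the submitters' processing notes, and the scaling between arrays is not given in the sources used here, nor are versions. Arrays have no read depth; their number limits the precision.

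Of 10928 probe sets, 7244 had 1 gene name in the platform annotation, and 5498 matched a gene of the S288C R64 table by gene ID. The 1746 others gave the background level of each array, their 95th percentile. For the 47 genes with several probe sets, the one with the highest mean was used. All probe sets were quantile normalized over the 6 arrays. Each gene was tested with limma 3.58.1 in R 4.3.3 (lmFit, eBayes, vps1 deletion minus wild type, 2-sided), with Benjamini-Hochberg adjustment over 5449 genes. The fit without the block was also run on simulated data with independent noise on each array, which does not cover the replicate pattern described below. Errors of levels are SDs and errors of differences SEs.

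Replicate numbers come from the labels. Same-numbered arrays deviated together (correlations of 0.67, 0.65 and 0.29 over genes, and at most 0.23 between arrays of different number). Part of that contrast is forced, because the deviations cancel within a strain. The grounds for the block are the same-number correlations. Values with the number as a block are therefore printed where the call changes. Every ATG gene is named; in other lists, up to 4 members with the smallest p among those past the threshold, or the 1 with the smallest p. The members and lists were chosen with earlier results of these data known. Promoter motifs, planned, were not analysed here. Alternatives were the values as deposited, median centring, cyclic loess, quantile normalization over yeast genes alone, the mean of a gene's probe sets, leaving out dim genes, a variance trend, the block, and leaving out each array.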

Additional observations from a re-analysis of the deposited data

How the results depend on the processing

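Of the 25 ATG genes above 0, 20 were above 0 under all 14 alternatives, and ATG5 and ATG22 passed under each of them. The sign could not turn under several of these. The block, the variance trend, leaving out dim genes and the mean of probe sets leave every ATG difference as it was. The values as deposited add an upward shift. The count of ATG genes that rose was 5. It was 15 with the replicate number as a block, 32 on the values as deposited (where 76% of all genes passed as higher) and 2 to 9 when 1 array was left out (where 195 to 436 of all genes passed as higher). The count that fell was 0, and 1, ATG16, with the block and with quantile normalization over yeast genes alone. The median ATG difference was 0.20, against 0.80 on the values as deposited, 0.26 with median centring, 0.27 with cyclic loess and 0.147 to 0.287 with 1 array left out. VPS1 passed throughout.

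On the values as deposited, which carry the shift of 0.51, all 9 genes below 0 lay above wild type: ATG11 by 0.52, ATG13 by 0.32, ATG18 by 0.43, ATG2 by 0.48, ATG41 by 0.29, ATG4 by 0.57, ATG16 by 0.0804, ATG32 by 0.52 and ATG40 by 0.44. ATG4 was at 0.0317 with median centring, and ATG11, ATG4 and ATG32 at 0.0099, 0.0227 and 0.0013 with cyclic loess. With 1 array left out, the sign turned for ATG31 (-0.043 to 0.43), ATG11 (-0.059 to 0.0139), ATG14 (-0.016 to 0.13), ATG38 (-0.0463 to 0.19), ATG12 (-0.0099 to 0.37), ATG7 (-0.0093 to 0.19), ATG32 (-0.079 to 0.0451) and ATG40 (-0.27 to 0.0064), none of which passed. With the block, 11 more ATG genes passed, 10 higher and 1 lower, and all 5 kept their call. Among all genes 369 passed as higher and 342 as lower, and 784 and 892 with the block. The cause of these changes was not tested.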
